A study of Homo sapiens with 12 samples.

Results

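Solute carriers are membrane proteins that move small molecules across the plasma membrane and the membranes of organelles, by facilitated diffusion, by exchange or by coupling to a gradient of sodium or protons. Their genes carry the root symbol SLC, followed by the number of the family. The genes described here were the protein-coding genes with a symbol of SLC and a digit and at least 1 TPM (the share of transcripts, scaled to a fixed total per library) in at least 2 of 12 RNA-seq libraries. SLC7A11, SLC7A5, SLC3A2, SLC7A1, SLC1A5, SLC1A4, SLC38A2, SLC6A9, SLC2A1, SLC16A3 and SLC45A3 were left out by name. Of the 373 protein-coding SLC genes in the table, 150 stayed under the limit on low values, 11 were left out by name and 212 remained, among 16337 genes tested in all.

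The cells were LNCaP, a single established, androgen-responsive line from a lymph node metastasis of prostate cancer. They were transfected with siRNA against SMARCA4, in 2 versions, or with the non-targeting pool (si-NT). SMARCA4 encodes BRG1, an ATPase of the SWI/SNF chromatin remodelling complex. Cells were collected at 72 h, or were split and transfected again at 72 h and collected at 144 h. Each time point had 2 si-NT libraries and 4 BRG1 depleted libraries, 2 for each siRNA. The siRNAs are called 2 and 3, as in the column names of the deposited values, whereas the sample labels number them 1 and 2. Which column number stands for which labelled siRNA is not stated. For 1 of the 72 h libraries the title and the treatment label name different siRNAs. Nothing states that the replicates were separate cultures, so p-values measure the spread between these libraries, which may be technical. In RNA from whole cultures, fewer cells of a kind and less RNA per cell cannot be told apart.

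SMARCA4 was measured at 97.01 and 73.44 TPM in the si-NT libraries at 72 h and at 94.5 and 106.59 TPM at 144 h. In the BRG1 depleted libraries it was measured at 17.48 to 21.7 TPM at 72 h and at 11.42 to 17.44 TPM at 144 h, so the groups did not overlap at either time point. All 8 markers of prostate luminal cells were detected, with a sum of 1810 to 2700 TPM per library. None of the 3 basal markers, 3 leukocyte markers or the 1 endothelial marker found reached 1 TPM in any library, and the 4 fibroblast markers summed to 3.13 to 9.15 TPM. The spike-in RNA held 0.805% to 1.966% of the TPM total. TPM keeps no read depth, so counting error is unknown and precision was judged from the replicates alone.

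In prostate tissue, solute carriers are best known for zinc, which luminal cells of the normal gland accumulate and malignant ones lose. ZIP proteins (SLC39) bring zinc into the cytosol, and ZnT proteins (SLC30) move it out of the cytosol or into vesicles. Nucleotide sugar carriers (SLC35) supply the Golgi and the endoplasmic reticulum with the activated sugars that glycosylation uses. The 212 genes were placed in 12 classes by the substrate their family is known for. The largest class was the 41 mitochondrial carriers (SLC25), followed by 28 genes for inorganic ions, 26 for amino acids and peptides and 18 for zinc. There were 15 genes each for sugars and polyols, for vitamins, haem, nucleosides and bases, and with another or no assigned substrate. The smaller classes were 14 genes for organic ions and vesicular amines, 13 for nucleotide sugars, 11 for lipids, choline and acyl groups, and 8 each for monocarboxylates and other carboxylates and for other metals.

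The 212 genes summed to between 6033 and 6758 TPM per library, and the median gene had a mean of 14.1 TPM over the 12 libraries. Only 9 genes had a mean of 100 TPM or more, and 48 had a mean under 5 TPM. The 5 most abundant were SLC25A5 (mean 572.4 TPM) and SLC25A6 (190.3 TPM), which exchange ADP for ATP across the inner mitochondrial membrane, SLC25A3 (541.0 TPM), which imports phosphate into mitochondria, SLC25A39 (302.1 TPM), which imports glutathione there, and SLC50A1 (184.2 TPM), a sugar transporter. The mitochondrial carriers alone held 2490 to 2970 TPM per library. SLC25A5 has processed pseudogene copies and SLC25A6 lies in the pseudoautosomal region, so reads that fit more than 1 copy make their levels uncertain.

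The first comparison asked which carriers differed between BRG1 depleted and si-NT cells at 72 h. At this time point 3 genes fell and 9 rose at an adjusted p under 0.05 (limma, Benjamini-Hochberg adjustment over all genes tested), which was 5.66% of the 212. Among all genes tested 1.68% were called, 0.557% lower and 1.13% higher. The genes that fell were SLC43A1, SLC7A2 and SLC25A5, and those that rose were SLC29A4, SLC44A3, SLC22A23, SLC27A2, SLC16A13, SLC44A2, SLC36A4, SLC39A13 and SLC26A2. None passed the larger limit of a log2 fold change beyond 1.5, which 0.165% of all genes passed (0.11% lower and 0.0551% higher), and 53 of the 212 had an unadjusted p under 0.05. The median log2 fold change was 0.119 for the 212 genes and 0.0554 for all genes tested. The 72 h calls depended on the libraries in the fit. With only the 72 h libraries fitted, 0 genes were lower and 0 higher. Without si-NT 72 h replicate 1 the counts were 0 lower and 2 higher, and without si-NT 72 h replicate 2 they were 0 and 1. The number higher was 4 without siRNA 2 72 h replicate 1 or replicate 2, 3 without siRNA 3 72 h replicate 1, and 2 without siRNA 3 72 h replicate 2 or without si-NT 144 h replicate 1 or replicate 2. Rescaling TPM to the spike-ins left 0 calls in either direction, and rescaling by median-of-ratios size factors gave 5 lower and 7 higher, 58.3% higher in place of 75%.

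At 144 h many more carriers differed, in both directions. There were 21 genes that fell and 49 that rose, together 33% of the 212, where 24.4% of all genes tested were called. The share that fell (9.91%) was near the 10.8% of all genes, and the share that rose was 23.1%, where 13.6% of all genes rose. Most of these changes were small, as 57 of the 70 genes had a log2 fold change within 1 of 0. Past a log2 fold change of 1.5 were SLC43A1 (-1.50) and SLC45A1 (1.62), 0.943% of the 212, where 1.1% of all genes passed this limit (0.404% lower and 0.698% higher). The median log2 fold change was 0.0978 for the 212 genes and 0.026 for all genes. Every BRG1 depleted library lay outside the range of both si-NT libraries for 39 genes on the lower side and 84 on the higher side, 58% of the 212, where 48.6% of all genes did so (22.5% lower and 26.1% higher). At 72 h this held for 17 genes on the lower and 59 on the higher side, 35.8% of the 212, where it held for 23.3% of all genes (6.93% lower and 16.3% higher).

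The scale of the values mattered for the direction at 144 h. The paper states that its read counts were normalised with the spike-ins, and most genes it called were lower at both time points. Its test and limits differ from those used here. Rescaled to the spike-ins, the median of all genes moved to a log2 fold change of -0.31 and that of the 212 genes to -0.229, and the calls were 11 lower and 1 higher, 8.33% higher in place of 70%. Among the genes lower under this scaling were SLC43A1, SLC7A2, SLC38A1, SLC16A1, SLC16A7, SLC13A3, SLC18B1, SLC9B2, SLC10A7 and SLC25A5, and the 1 higher was SLC45A1. All 21 genes that fell kept their sign under this scaling. Since it moved the median of all genes down, this could hardly have turned out otherwise. Of the 49 genes that rose, 47 kept their sign, the exceptions being SLC27A4 and SLC35C2. Relative to all genes, the median of the 212 genes was 0.07 higher on the TPM scale and 0.08 higher on the spike-in scale. Leaving out si-NT 144 h replicate 1 gave 13 lower and 24 higher, and leaving out si-NT 144 h replicate 2 gave 6 and 15. Of the 37 genes called at 144 h that are named by the rule given in the methods, 17 remained called with each of the 12 libraries left out in turn and 20 did not. Lost calls are given below for these 37 only. For other genes in the text the calls were not followed one by one, so they are not shown to remain.

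**Figure D1:**
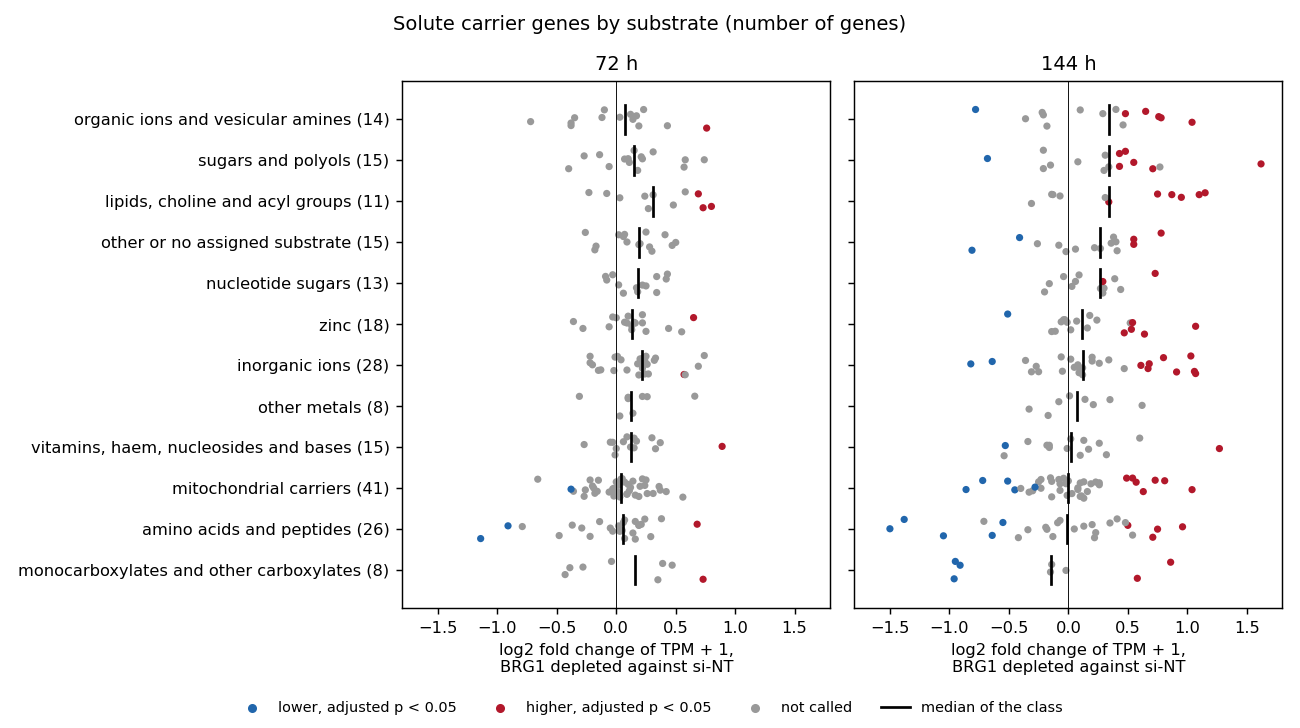
Log2 fold change of each of the 212 solute carrier genes (points) in BRG1 depleted against si-NT cells at 72 h (left) and 144 h (right), on the log2(TPM + 1) scale, by substrate class, with the number of genes in brackets and the class median as a vertical line. At 144 h 21 genes were lower (blue) and 49 higher (red), and the median lay between -0.15 for monocarboxylates and 0.35 for organic ions. Scaled to the spike-ins the medians of all but 3 classes were below 0 at 144 h.

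The 2 time points were similar for the genes called early. All 12 genes called at 72 h had the same sign at 144 h. The share among all genes called at 72 h is not given here, so this is not shown to be particular to the carriers. Among all genes tested 24.4% were called at 144 h. That share covers genes whether or not they were called at 72 h, so it is no like baseline for the 12. Of the 12 genes, 11 were called at 144 h too. The exception was SLC36A4, a lysosomal and plasma membrane amino acid transporter. It was measured at 7.36 and 6.56 TPM in si-NT cells at 72 h and at 10.94, 9.96, 12.91 and 13.63 TPM in BRG1 depleted cells. At 144 h, both si-NT libraries (10.06 and 9.96 TPM) lay within the range of the BRG1 depleted ones (9.17 to 12.83 TPM). Its log2 fold change was 0.68 (standard error, SE, 0.15, adjusted p = 0.0437) at 72 h and 0.05 (SE 0.15, adjusted p = 0.834) at 144 h. The difference between its fold changes was -0.63 with an adjusted p of 0.312, so it was not shown to differ between time points. In limma's test of that difference 0 of the 212 genes were called and 31 had an unadjusted p under 0.05, where 0.0184% of all genes were called (0.00612% lower and 0.0122% higher). The si-NT cells of the 2 time points differed at 0 of the 212 genes, with 3 at an unadjusted p under 0.05, and 0% of all genes were called.

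**Figure D2:**
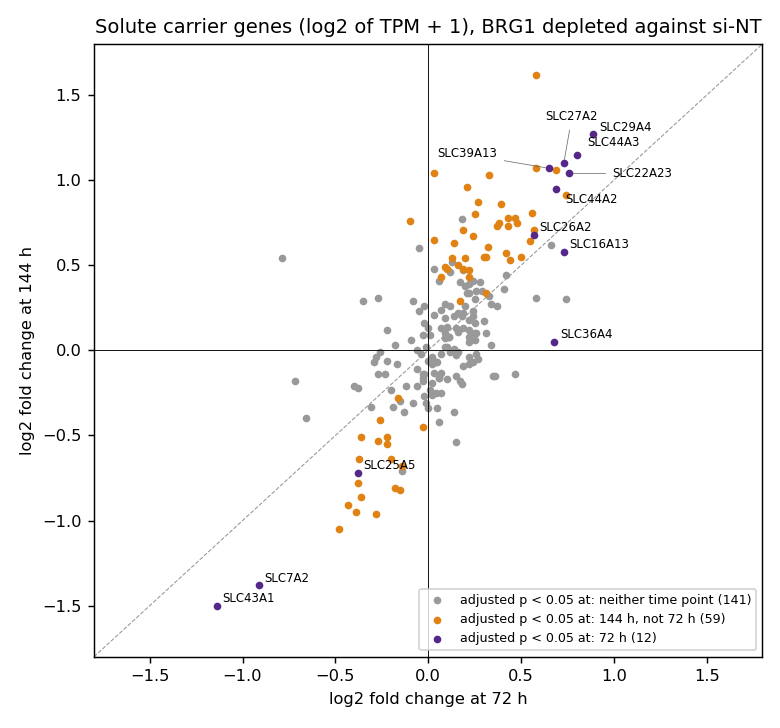
Log2 fold change of the 212 genes at 72 h (x axis) and 144 h (y axis) in BRG1 depleted against si-NT cells, on the log2(TPM + 1) scale, with equality as a dashed line. The 12 genes called at 72 h (purple, named) lie in the 2 quadrants of equal sign, 59 were called at 144 h and not at 72 h (orange), and 141 at neither (grey).

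The promoters of 5 of the 11 genes called at both time points are shown here, 2 that fell and 3 that rose. They do not stand for all 11. Among those not shown, the windows of SLC22A23 and of the zinc carrier SLC39A13 held none of the motifs marked below. Each is the 250 bases before the transcription start in RefSeq, assembly GRCh38.p14, written 5′ to 3′ on the strand of the gene. Of several starts, the outermost is shown. The windows are SLC43A1 at chr11:57515703-57515952 on the reverse strand, SLC25A5 at chrX:119468194-119468443, SLC44A2 at chr19:10602205-10602454, SLC27A2 at chr15:50181946-50182195 and SLC26A2 at chr5:149960508-149960757, the last 4 on the forward strand. Capitals mark, on either strand, the E-box CACGTG, the metal response core TGCACNC or TGCGCNC, the CCAAT box, the GC box GGGCGG and AGAACA, the hexamer bound by the androgen receptor.
SLC43A1: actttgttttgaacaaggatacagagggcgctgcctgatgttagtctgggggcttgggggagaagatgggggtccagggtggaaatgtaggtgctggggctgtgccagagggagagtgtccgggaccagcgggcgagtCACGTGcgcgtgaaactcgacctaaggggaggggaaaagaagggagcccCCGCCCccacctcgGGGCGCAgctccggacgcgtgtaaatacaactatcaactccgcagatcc
SLC25A5: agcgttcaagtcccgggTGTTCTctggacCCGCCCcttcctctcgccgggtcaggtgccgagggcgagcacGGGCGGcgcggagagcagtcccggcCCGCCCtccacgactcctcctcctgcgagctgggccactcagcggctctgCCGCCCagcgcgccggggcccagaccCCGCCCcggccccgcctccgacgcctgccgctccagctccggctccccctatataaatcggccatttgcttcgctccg
SLC44A2: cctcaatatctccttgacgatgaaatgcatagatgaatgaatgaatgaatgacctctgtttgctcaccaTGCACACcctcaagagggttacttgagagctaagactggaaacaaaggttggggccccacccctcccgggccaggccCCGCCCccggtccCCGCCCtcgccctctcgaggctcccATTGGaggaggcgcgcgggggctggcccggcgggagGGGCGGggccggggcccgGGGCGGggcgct
SLC27A2: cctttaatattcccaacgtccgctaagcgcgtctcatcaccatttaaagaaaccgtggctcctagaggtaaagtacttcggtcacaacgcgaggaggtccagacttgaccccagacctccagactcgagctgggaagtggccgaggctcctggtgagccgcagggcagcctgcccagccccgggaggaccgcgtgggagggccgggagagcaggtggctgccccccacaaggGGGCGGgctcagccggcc
SLC26A2: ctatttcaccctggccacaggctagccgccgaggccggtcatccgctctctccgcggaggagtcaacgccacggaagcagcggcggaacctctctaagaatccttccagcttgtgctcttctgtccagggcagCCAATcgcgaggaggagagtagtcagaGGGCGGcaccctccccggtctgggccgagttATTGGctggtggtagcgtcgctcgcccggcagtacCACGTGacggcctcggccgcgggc

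SLC25A5 held 5 GC boxes and 1 AGAACA, SLC44A2 held 4 GC boxes, and SLC27A2 held 1 GC box and none of the other motifs. RefSeq windows were matched for 173 of the 212 genes, with 254 windows in all. A GC box stood in 63% of these and in 63.4% of the windows of all genes tested, and a CCAAT box in 33.1% of both. CACGTG stood in 11.4% of the windows of the 212 genes, in 8.5% of those of all genes tested and in 6.34% of all 35116 windows of the table. AGAACA stood in 8.27% of the windows of the 212 genes, in 8% of those of all genes tested and in 12.4% of all windows. Genes that fell at 144 h had 24 windows from 15 genes, and those that rose had 52 from 40 genes. AGAACA stood in 5 (20.8%) and 4 (7.69%) of these. In the same order CACGTG stood in 8.33% and 5.77% and the metal response core in 20.8% and 36.5%. CCAAT stood in 37.5% and 42.3% and the GC box in 54.2% and 75%. The metal response core, the element bound by the zinc-sensing factor MTF1, stood in 10 of 23 windows of zinc carriers (43.5%) and in 31.9% of those of all genes tested. These shares describe letters in a window and were not tested.

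The carriers of amino acids and peptides held the 3 lowest log2 fold changes at 144 h, those of SLC43A1, SLC7A2 and SLC38A1. Of the 26 genes, 5 fell and 4 rose at 144 h and 17 were not called. Their median log2 fold change was -0.01, or -0.04 relative to all genes. Scaled to the spike-ins it was -0.28, or 0.03 relative to all genes. The counts of this and the other classes can be set against all genes tested, of which 10.8% fell and 13.6% rose at 144 h. SLC43A1 (ENSG00000149150.4, GRCh37 chromosome 11, 57252007 to 57283253), also called LAT3, is a facilitator for leucine and other large neutral amino acids that was first described in prostate cancer. It was measured at 54.33 and 56.35 TPM in si-NT cells and at 20.96, 23.51, 29.82 and 24.45 TPM in BRG1 depleted cells at 72 h. At 144 h it was measured at 51.54 and 46.81 TPM in si-NT cells and at 15.64, 22.1, 17.08 and 13.09 TPM in BRG1 depleted cells. Every BRG1 depleted library was thus below every si-NT library at both time points. The mean fell by 55.4% at 72 h (log2 fold change -1.14, SE 0.18, adjusted p = 0.0106) and by 65.5% at 144 h (-1.50, SE 0.18, adjusted p = 0.000276).

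SLC7A2 (ENSG00000003989.12, chromosome 8, 17354597 to 17428082), also called CAT2, brings arginine, lysine and ornithine into the cell. It was a gene of low level, at 4.81 and 4.55 TPM in si-NT cells and 1.8 to 2.1 TPM in BRG1 depleted cells at 72 h. At 144 h the si-NT libraries held 4.4 and 4.93 TPM and the BRG1 depleted ones 1.23, 1.27, 1.22 and 0.98 TPM. The groups did not overlap at either time point, and the 4 depleted libraries lay within 0.3 TPM of each other at each. Its log2 fold change was -0.91 (SE 0.12, adjusted p = 0.00561) at 72 h and -1.38 (SE 0.12, adjusted p = 5.42e-05) at 144 h. SLC38A1, a sodium-coupled glutamine transporter, was measured at 49.5 and 51.17 TPM in si-NT cells and at 23.77, 22.21, 26.21 and 22.89 TPM in BRG1 depleted cells at 144 h, a fall of 52.8% (log2 fold change -1.05, adjusted p = 0.000249). At 72 h its BRG1 depleted libraries (33.34 to 44.77 TPM) were also all below the si-NT libraries (50.71 and 58.77 TPM), with an adjusted p of 0.082.

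The most abundant gene of the class by the fixed rule was SLC6A8, the creatine transporter, with a mean of 50.5 TPM (SD 2.40) over 2 si-NT libraries and of 32.4 TPM (SD 5.03) over 4 depleted libraries at 144 h (limma adjusted p = 0.0227). SLC7A8 (LAT2), an exchanger of neutral amino acids, fell as well (-0.55, adjusted p = 0.0225). In the other direction, SLC7A9, the light chain of the cystine exchanger of kidney and gut, was measured at 0.39 and 0.4 TPM in si-NT cells and at 1.63, 2.68, 1.47 and 1.24 TPM in BRG1 depleted cells at 144 h. Its log2 fold change of 0.96 (adjusted p = 0.00716) understates a rise from so low a level, because 1 was added to every value. In TPM its mean rose by 344%. Both si-NT libraries were under 1 TPM and all 4 depleted ones above it. The gene could thus meet the limit on low values through the depleted libraries alone, so its rise and adjusted p are no support of their own. SLC66A1, which exports cationic amino acids from lysosomes, rose by 0.71 (adjusted p = 0.00661), and SLC38A10 by 0.50 (adjusted p = 0.0224). The calls of SLC6A8 and SLC7A9 were lost without either of the si-NT 144 h libraries, whereas those of SLC43A1, SLC7A2 and SLC38A1 remained with every library left out.

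**Figure D3:**
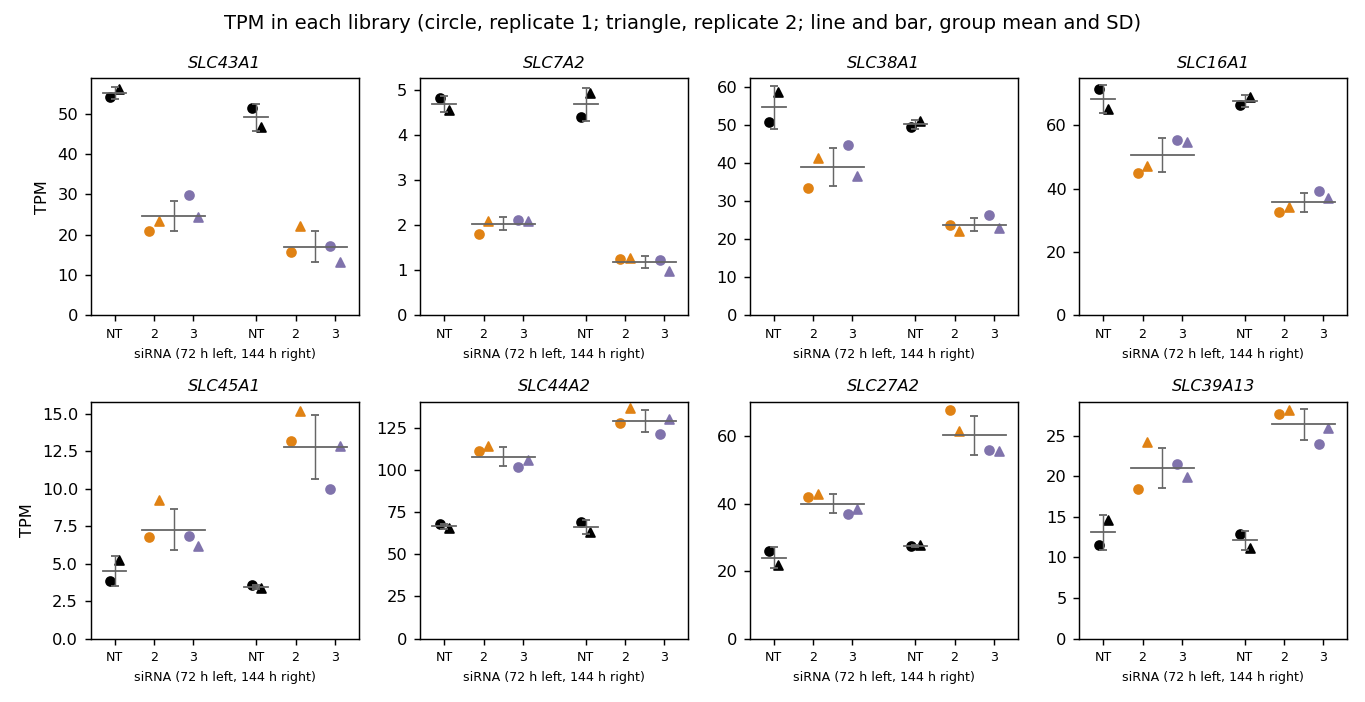
TPM (y axis, from 0) in each library for 8 genes at 72 h (left in each panel) and 144 h (right), for si-NT (NT, black), siRNA 2 (orange) and siRNA 3 (purple), with the mean and SD of the 2 si-NT and the 4 BRG1 depleted libraries as lines and bars. SLC43A1, SLC7A2, SLC38A1 and SLC16A1 were lower and SLC45A1, SLC44A2, SLC27A2 and SLC39A13 higher in all BRG1 depleted libraries at both time points. SLC38A1, SLC16A1 and SLC45A1 did not pass the test at 72 h.

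The carriers of monocarboxylates and other carboxylates held 8 genes, of which 3 fell and 2 rose at 144 h. SLC16A1 (MCT1, ENSG00000155380.7, chromosome 1, 113454469 to 113500215) moves lactate and pyruvate together with protons. At 72 h it was measured at 71.56 and 65.31 TPM in si-NT cells and at 44.98, 47.19, 55.4 and 54.77 TPM in BRG1 depleted cells. At 144 h the values were 66.37 and 69.1 TPM in si-NT cells and 32.48, 34.07, 39.3 and 36.9 TPM in BRG1 depleted cells. The groups did not overlap at either time point, although the test was passed only at 144 h (log2 fold change -0.91, SE 0.11, adjusted p = 0.00033, and -0.43, adjusted p = 0.0845, at 72 h).

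SLC16A7 (MCT2), which has a high affinity for pyruvate, was measured at 3.99 and 5.21 TPM in si-NT cells and at 1.42 to 2.2 TPM in BRG1 depleted cells at 144 h (-0.95, adjusted p = 0.00502). SLC13A3, a sodium-coupled carrier of dicarboxylates such as succinate, was measured at 2.78 and 2.9 TPM in si-NT cells and at 0.94, 1.2, 0.87 and 0.91 TPM in BRG1 depleted cells (-0.96, adjusted p = 0.00129). Its gene overlaps TP53RK (mean 14.77 TPM) on the same strand over 103 bases. SLC16A1, SLC16A7 and SLC13A3 were also called lower when TPM was scaled to the spike-ins, where the median of all genes was -0.31. SLC16A13 went the other way at both time points, from 4.4 and 4.42 TPM to 6.61 to 9.15 TPM at 72 h (0.73, adjusted p = 0.0273) and from 4.85 and 4.77 TPM to 6.98 to 8.33 TPM at 144 h (0.58, adjusted p = 0.0105). The SLC16A7 call was lost without si-NT 144 h replicate 2 and the SLC16A13 call at 144 h without either si-NT 144 h library.

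Carriers of lipids, choline and acyl groups were called in 1 direction only, where 1.13% of all genes rose at 72 h and 13.6% at 144 h. Of the 11 genes, 3 rose and 0 fell at 72 h, and 6 rose and 0 fell at 144 h, with a median of 0.34 on the log2 scale at 144 h (0.09 when scaled to the spike-ins, with 0 called, and 0.41 above all genes on that scale). SLC44A2 (ENSG00000129353.10, chromosome 19, 10713133 to 10755233), a choline transporter-like protein, was among the 9 genes with a mean of at least 100 TPM. Its level was 67.78 and 65.32 TPM in si-NT cells and 111.51, 114.43, 101.54 and 105.71 TPM in BRG1 depleted cells at 72 h. At 144 h it was measured at 69.41 and 63.26 TPM in si-NT cells and at 127.94, 136.55, 121.11 and 130.27 TPM in BRG1 depleted cells. The lowest depleted library was above the highest si-NT library by more than the range of either group at both time points. The log2 fold change was 0.69 at 72 h (SE 0.08, adjusted p = 0.0029) and 0.95 at 144 h (SE 0.08, adjusted p = 4.27e-05), the lowest adjusted p of the 212 genes at each time point.

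SLC44A3, of the same family, was measured at 2.92 and 2.33 TPM in si-NT cells and at 4.75 to 5.86 TPM in BRG1 depleted cells at 72 h, and in the same order at 3.02 and 3.49 TPM and 6.36 to 10.05 TPM at 144 h. It rose at both time points (0.80, adjusted p = 0.0335, and 1.15, adjusted p = 0.00074). With SLC44A4 (0.87 at 144 h, adjusted p = 0.0242), 3 of the 4 SLC44 genes measured rose at 144 h, and SLC44A1 was not called (-0.07, adjusted p = 0.863). SLC27A2 (FATP2, chromosome 15, 50474393 to 50528582) takes up long-chain fatty acids and activates very long-chain ones to their CoA esters. It was measured at 26.07 and 21.68 TPM in si-NT cells and at 37.07 to 42.87 TPM in BRG1 depleted cells at 72 h, and in the same order at 27.33 and 27.74 TPM and 67.74, 61.46, 55.92 and 55.51 TPM at 144 h. Its rise was 67.7% at 72 h (adjusted p = 0.01) and 118% at 144 h (log2 fold change 1.10, SE 0.11, adjusted p = 0.00011). SLC27A1 (0.75) and SLC27A4 (0.34) rose at 144 h as well, so that 3 of 6 SLC27 genes were called, although SLC27A4 changed sign under spike-in scaling.

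Among carriers of inorganic ions, 8 of 28 genes rose and 2 fell at 144 h, where 13.6% of all genes rose and 10.8% fell. The 4 genes of the SLC26 family of sulphate and anion exchangers that were measured were all called higher at 144 h, and their log2 fold changes lay between 0.61 and 1.06 (median 0.74, and 0.37 with 0 called when scaled to the spike-ins). SLC26A2, whose loss of function causes dysplasias of cartilage, was measured at 6.39 and 5.77 TPM in si-NT cells and at 8.69, 9.86, 9.5 and 10.04 TPM in BRG1 depleted cells at 72 h. At 144 h the si-NT libraries held 6.32 and 6.56 TPM and the BRG1 depleted ones 9.69 to 11.9 TPM. Its log2 fold change was 0.57 (SE 0.11, adjusted p = 0.0283) and 0.68 (SE 0.11, adjusted p = 0.00152). SLC26A1, a sulphate transporter, was measured at 8.37 and 9.56 TPM in si-NT cells and at 16.72 to 22.65 TPM in BRG1 depleted cells at 144 h (1.06, adjusted p = 0.00166). Its gene overlaps DGKQ on the same strand over 7823 bases and IDUA on the opposite strand over 6444 bases. Overlaps were taken between whole genes, introns included, and exons were not compared. How far its reads can be assigned is therefore uncertain. SLC26A6 and SLC26A11 rose by 0.61 (adjusted p = 0.0152) and 0.80 (adjusted p = 0.0109).

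SLC9A7, an exchanger of the trans-Golgi network, rose by 0.91 at 144 h (adjusted p = 0.00708). SLC4A11, a proton and water channel-like member of the bicarbonate carrier family, was measured at 5.25 and 3.59 TPM in si-NT cells and at 8.79 to 12.06 TPM in BRG1 depleted cells (1.07, adjusted p = 0.00289). SLC9B2, a sodium-proton antiporter, fell from 9.22 and 11.68 TPM to 4.18, 5.5, 7.21 and 5.28 TPM (-0.82, adjusted p = 0.0154), and its gene overlaps BDH2 on the same strand over 8238 bases. SLC4A7, a sodium bicarbonate cotransporter, fell by 0.64 on the log2 scale (adjusted p = 0.032). The most abundant gene of the class, the anion exchanger SLC4A2, was not called at 144 h (0.20, adjusted p = 0.24). The calls of SLC4A11 and SLC9B2 were lost without si-NT 144 h replicate 2.

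The 18 zinc carriers were expressed at a sum of 621 to 764 TPM per library. At 72 h, 1 rose and 0 fell. At 144 h 5 rose, 1 fell and 12 were not called, with a median log2 fold change of 0.12 (-0.27 and 0 called when scaled to the spike-ins). The largest log2 fold change was that of SLC39A13 (ZIP13, ENSG00000165915.9, chromosome 11, 47428683 to 47438047), which releases zinc from vesicles of the secretory pathway. It was measured at 11.52 and 14.59 TPM in si-NT cells and at 18.41, 24.18, 21.53 and 19.87 TPM in BRG1 depleted cells at 72 h, and in the same order at 12.93 and 11.22 TPM and 27.63, 28.12, 23.97 and 25.92 TPM at 144 h. The groups did not overlap at either time point, and the log2 fold change was 0.65 (SE 0.13, adjusted p = 0.0337) at 72 h and 1.07 (SE 0.13, adjusted p = 0.000343) at 144 h.

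Of the other ZIP genes, SLC39A1 (ZIP1), a zinc importer of the plasma membrane that is abundant in prostate epithelium, was measured at 62.9 and 67.89 TPM in si-NT cells and at 97.17, 98.85, 84.97 and 84.27 TPM in BRG1 depleted cells at 144 h (0.47, SE 0.11, adjusted p = 0.00845). It overlaps CREB3L4 on the opposite strand over 651 bases. SLC39A10 (0.53, adjusted p = 0.0171) and SLC39A11 (0.54, adjusted p = 0.0127) also rose. SLC39A14 (ZIP14), which carries zinc and also iron and manganese, fell from 44.53 and 46.72 TPM to 35.26, 34.18, 30.16 and 27.53 TPM (-0.51, SE 0.11, adjusted p = 0.00827). The other 6 ZIP genes measured, SLC39A3, SLC39A4, SLC39A6, SLC39A7, SLC39A8 and SLC39A9, were not called, and at 144 h they had log2 fold changes between -0.14 and 0.24.

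Among the 7 ZnT genes counted as zinc carriers, SLC30A4 (ZnT4), which loads zinc into vesicles, was the most abundant, with a mean of 98.96 TPM. At 144 h it was measured at 72.52 and 69.23 TPM in si-NT cells and at 120.16, 131.26, 108.49 and 89.02 TPM in BRG1 depleted cells (0.64, SE 0.21, adjusted p = 0.0421). At 72 h its 2 si-NT libraries, at 57.32 and 96.75 TPM, differed from each other by more than the group means did, and it was not called (adjusted p = 0.233). The 144 h call was lost in 7 of the 12 fits with a library left out, namely without either si-NT 144 h library, without siRNA 2 144 h replicate 1 or 2, siRNA 3 144 h replicate 1, siRNA 2 72 h replicate 1 or siRNA 3 72 h replicate 2. SLC30A1, SLC30A3, SLC30A5, SLC30A6, SLC30A7 and SLC30A9 were not called, with log2 fold changes between -0.06 and 0.52. Without si-NT 144 h replicate 2 the calls of SLC39A1, SLC39A10, SLC39A11 and SLC39A14 were lost too, and SLC39A13 was the only zinc carrier called with every library left out.

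**Figure D4:**
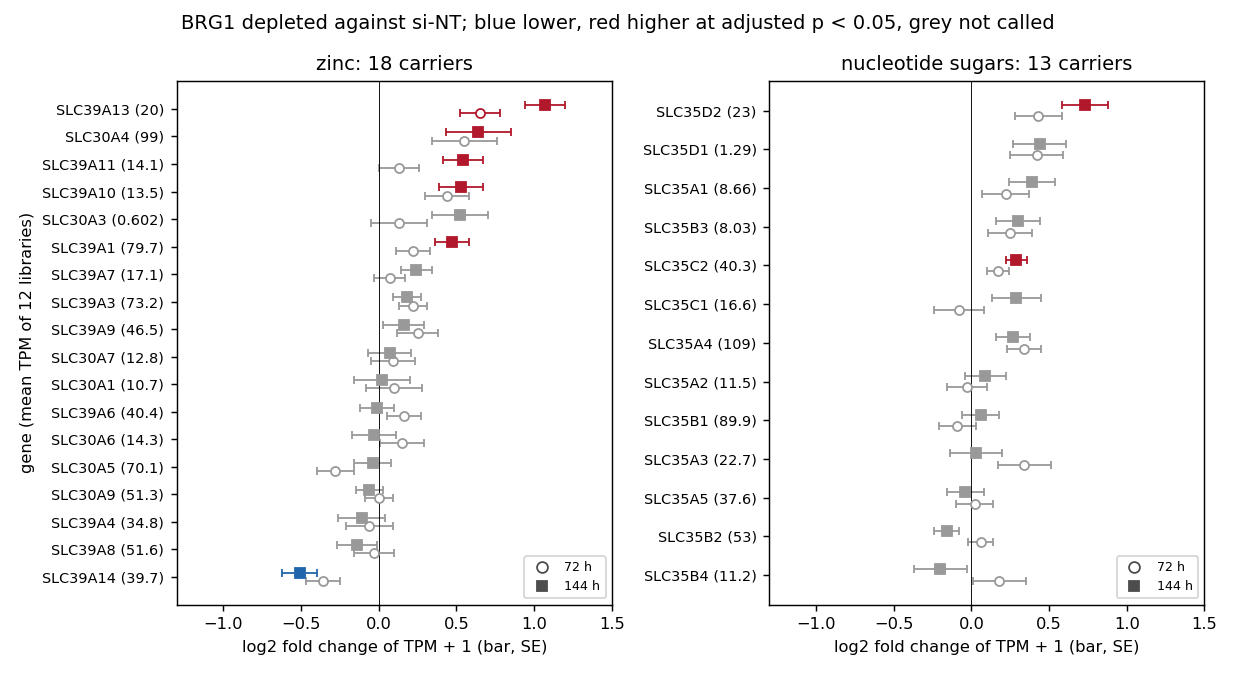
Log2 fold change (x axis, log2(TPM + 1) scale) with its SE for the 18 zinc carriers (left) and the 13 nucleotide sugar carriers (right) at 72 h (open circles) and 144 h (squares), in BRG1 depleted against si-NT cells, with the mean TPM of the 12 libraries beside each gene. At 144 h 5 zinc carriers and 2 nucleotide sugar carriers were called higher (red) and SLC39A14 lower (blue), and SLC35C2 changed sign when scaled to the spike-ins.

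Of the 13 nucleotide sugar carriers none was called at 72 h, and at 144 h 2 rose, 0 fell and 11 were not called, where 13.6% of all genes rose. Their median log2 fold change was 0.18 at 72 h and 0.27 at 144 h, with 10 of the 13 above 0 at 144 h. When scaled to the spike-ins the 144 h median was -0.13. It lay above that of all genes by 0.24 on the TPM scale and by 0.18 on the spike-in scale. SLC35D2, a Golgi carrier of UDP-N-acetylglucosamine and UDP-glucose, was measured at 16.28 and 15.47 TPM in si-NT cells and at 26.03, 23.56, 25.66 and 33.97 TPM in BRG1 depleted cells at 144 h. All 4 depleted libraries were above both si-NT libraries, with a rise of 72% (log2 fold change 0.73, SE 0.15, adjusted p = 0.00585). SLC35C2, a Golgi protein tied to the fucosylation of Notch, rose from 35.07 and 33.62 TPM to 40.41, 42.55, 43.94 and 42.11 TPM on the TPM scale, a change of 23% (0.29, adjusted p = 0.0152), and its log2 fold change was -0.10 on the spike-in scale. Both calls were lost without si-NT 144 h replicate 2, and that of SLC35C2 also without replicate 1.

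SLC35A4, the most abundant of the class, was measured at 94.52 and 101.07 TPM in si-NT cells and at 122.71, 133.27, 109.35 and 108.36 TPM in BRG1 depleted cells at 144 h. The groups did not overlap, but the change did not pass the test (0.27, adjusted p = 0.085). The carriers of CMP-sialic acid (SLC35A1, 0.39, adjusted p = 0.0741), UDP-galactose (SLC35A2, 0.09), GDP-fucose (SLC35C1, 0.29) and the sulphate donor PAPS (SLC35B2, -0.16, and SLC35B3, 0.30) were not called at 144 h. Enzymes of nucleotide sugar synthesis were taken as a separate list. It also held the glycolytic enzymes HK1, HK2 and GPI, and PAPSS1 and PAPSS2, which make PAPS. Of its 34 genes 32 were tested, with 0 lower and 2 higher at 72 h and 4 lower and 5 higher at 144 h, and a median log2 fold change of -0.01 and 0.02. At 144 h HK1 (0.83, limma adjusted p = 0.000441) was among the higher and GPI (-0.36, limma adjusted p = 0.0494) among the lower. Among all genes 0.557% were lower and 1.13% higher at 72 h, and 10.8% were lower and 13.6% higher at 144 h. UGDH, which oxidises UDP-glucose to UDP-glucuronate, rose from a mean of 52.9 TPM (SD 0.212, 2 libraries) to one of 149 TPM (SD 24.4, 4 libraries) at 144 h (limma adjusted p = 5.0e-05). UAP1, which forms UDP-N-acetylglucosamine, fell from a mean of 114 TPM (SD 18.8, 2 libraries) to one of 74.1 TPM (SD 8.02, 4 libraries, limma adjusted p = 0.00948).

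Carriers of sugars and polyols included the gene with the largest log2 fold change of all 212 on the log2(TPM + 1) scale. SLC45A1 (ENSG00000162426.10, chromosome 1, 8378174 to 8404227), a proton-coupled sugar transporter, was measured at 3.54 and 3.35 TPM in si-NT cells and at 13.17, 15.17, 10 and 12.87 TPM in BRG1 depleted cells at 144 h. Its mean rose by 272% (log2 fold change 1.62, SE 0.18, adjusted p = 0.000198), and all 4 depleted libraries stood above both si-NT libraries. At 72 h the groups did not overlap either, with 3.82 and 5.21 TPM and 6.18 to 9.26 TPM, but the test was not passed (0.58, adjusted p = 0.151). In this class 6 of 15 genes rose and 1 fell at 144 h, where 0 of 15 had been called at 72 h. The others that rose were SLC50A1 (0.43), SLC2A6 (0.55), SLC2A8 (0.43), SLC2A13 (0.71) and SLC37A1 (0.48), carriers of hexoses, inositol and glucose 6-phosphate. SLC5A3, which imports myo-inositol with sodium, fell from 6.63 and 6.69 TPM to 3.08 to 4.4 TPM (-0.68, adjusted p = 0.00805). It lies within MRPS6 on the same strand, with 32682 bases in common. Exons were not compared, so how far its reads can be assigned is uncertain. The SLC50A1 and SLC5A3 calls were lost without either si-NT 144 h library.

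Mitochondrial carriers were called in both directions, with 5 lower, 7 higher and 29 not called of 41 at 144 h, where 10.8% of all genes fell and 13.6% rose. The median log2 fold change was 0.00 (-0.39 when scaled to the spike-ins, where all genes were at -0.31). SLC25A5 (ANT2, ENSG00000005022.5, chromosome X, 118602385 to 118605359) was the only one called at 72 h. It was measured at 749.43 and 665.16 TPM in si-NT cells and at 541.15, 553.71, 531.75 and 538.88 TPM in BRG1 depleted cells at 72 h, and in the same order at 732.6 and 754.97 TPM and 445.64, 493.6, 427.02 and 435.39 TPM at 144 h. The 4 depleted libraries at 72 h lay close together, more than 100 TPM below either si-NT library. Its level fell by 23.5% (log2 fold change -0.38, SE 0.08, adjusted p = 0.039) and 39.4% (-0.72, SE 0.08, adjusted p = 0.000198). Its paralogue SLC25A6 was not called at 144 h (-0.33, adjusted p = 0.0619), although its depleted libraries (153.43 to 184.21 TPM) were all below its si-NT libraries (223.11 and 204.14 TPM). SLC25A3, the phosphate carrier, fell by 17.8% at 144 h (-0.28, adjusted p = 0.0146).

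SLC25A32 (folate or FAD, -0.45) and SLC25A12 (aspartate and glutamate, -0.51) fell at 144 h as well. Higher were SLC25A39, which rose from 250.39 and 248.19 TPM to 339.39, 369.86, 335.07 and 412.63 TPM (0.54, adjusted p = 0.00177), and SLC25A29, a carrier of basic amino acids, which rose from 15.4 and 13.26 TPM to 23.69, 29.65, 29.92 and 40.41 TPM (1.04, adjusted p = 0.0057). SLC25A20, which exchanges carnitine for acylcarnitine, rose from 16.06 and 16.02 TPM to 24.14 to 30.18 TPM (0.73, adjusted p = 0.000847), and SLC22A5, which takes carnitine into the cell, by 0.48 (adjusted p = 0.0186). The SLC25A3 call was lost without either si-NT 144 h library and that of SLC25A29 without replicate 2.

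Of the 14 carriers of organic ions and vesicular amines, 5 rose and 1 fell at 144 h, and 4 of the 9 SLC22 genes rose. SLC22A23, a member without a known substrate, was measured at 16.89 and 22.04 TPM in si-NT cells and at 30.92, 41.61, 31.23 and 30.45 TPM in BRG1 depleted cells at 72 h, and in the same order at 22.1 and 22.44 TPM and 54.25, 46.9, 41.67 and 45.4 TPM at 144 h. It rose at both time points (0.76, adjusted p = 0.0333, and 1.04, adjusted p = 0.000888), without overlap of the groups. It overlaps PSMG4 on the opposite strand over 34412 bases. SLC17A5 (sialin), the exporter of free sialic acid from lysosomes, rose from 8.62 and 8.71 TPM to 14.23 to 17.3 TPM at 144 h (0.78, adjusted p = 0.00374). SLC10A7, which is needed for calcium balance and for glycosylation in bone and cartilage, fell from 14.33 and 15.79 TPM to 6.82 to 10.19 TPM (-0.78, adjusted p = 0.00769), a call lost without si-NT 144 h replicate 2.

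Of the 15 carriers of vitamins, haem, nucleosides and bases, 1 rose at each time point and 1 fell at 144 h. The gene that fell was SLC19A2, the thiamine transporter of the plasma membrane (-0.53, adjusted p = 0.00515). The gene that rose, SLC29A4 (PMAT), is named with the nucleoside transporters but carries monoamines. The gene was measured at 3.83 and 5.44 TPM in si-NT cells and at 9.67, 11.07, 7.92 and 8.99 TPM in BRG1 depleted cells at 72 h, and in the same order at 4.11 and 5.54 TPM and 12.16, 14.77, 10.39 and 14.9 TPM at 144 h. It had the largest rise of the 12 genes called at 72 h (0.89, SE 0.18, adjusted p = 0.0368) and was called with every library left out at 144 h (1.27, SE 0.18, adjusted p = 0.000922). SLC29A1 (ENT1), the nucleoside transporter with the highest level of the class, was at 51.73 and 57.77 TPM in si-NT cells and at 30.72 to 46.83 TPM in BRG1 depleted cells at 144 h and did not pass the test (-0.54, adjusted p = 0.0543). None of the 8 carriers of other metals was called at either time point, among them SLC11A2 (DMT1), an importer of ferrous iron (-0.17 at 144 h, adjusted p = 0.339), and SLC40A1 (ferroportin), the exporter of iron (0.62, adjusted p = 0.0637). Of the 15 genes with another or no assigned substrate, 3 rose and 2 fell at 144 h, the largest fall being that of SLC18B1, a vesicular polyamine transporter, from 15.09 and 16.82 TPM to 6.83 to 10.75 TPM (-0.81, adjusted p = 0.00564). Its call was lost without si-NT 144 h replicate 2. The most abundant of these genes, SLC2A4RG, encodes a transcription factor and not a carrier, and was not called (0.36, adjusted p = 0.102).

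The siRNAs were also compared with each other and each with si-NT. Between siRNA 3 and siRNA 2, 0 of the 212 genes were called at 72 h (18 at an unadjusted p under 0.05) and 0 at 144 h (20 at an unadjusted p under 0.05), where limma called 0.141% (0.0184% lower and 0.122% higher) and 0.331% (0.153% lower and 0.178% higher) of all genes. Against the same si-NT libraries, siRNA 2 gave 3 lower and 6 higher genes at 72 h (0.63% and 0.937% of all genes, together 1.57%) and 19 lower and 47 higher at 144 h (7.67% and 13.6% of all genes, together 21.3%). siRNA 3 gave 2 lower and 3 higher at 72 h (0.226% and 0.428% of all genes, together 0.655%) and 25 lower and 32 higher at 144 h (10.4% and 9.83% of all genes, together 20.2%). At 144 h the log2 fold change under siRNA 2 and siRNA 3 was -1.35 and -1.65 for SLC43A1, -1.33 and -1.43 for SLC7A2, 1.77 and 1.47 for SLC45A1, and 0.99 and 0.91 for SLC44A2. For SLC39A13 these values were 1.15 and 0.99, and for SLC35D2 0.61 and 0.86.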

How the data were processed

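The authors extracted total RNA from LNCaP cells, added ERCC spike-in RNA, made stranded mRNA libraries and sequenced paired-end reads. Reads were aligned to hg19/GRCh37 with STAR (2.4.0j, per the submitters' processing notes) and counted with featureCounts, and TPM was determined on GENCODE v19. The authors deposited TPM, given to 2 decimals, of 63568 genes and 92 spike-ins, so depth is unknown and no count model was used. Whether counting used strand is not given in the sources used here. The authors compared groups with edgeR, and the paper states that read counts were normalised with the spike-in controls. The paper does not say whether the deposited TPM carry that normalisation. The main fit here used TPM as deposited, with spike-in scaling as an alternative.

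Symbols and GRCh37 positions came from GENCODE v44 in its GRCh37 mapping, a later release than that of the study, which gave 55665 genes a symbol. From TPM, log2(TPM + 1) was fitted with limma 3.58.1 in R 4.3.3 (lmFit, eBayes with a trend, prior degrees of freedom 3.53) for the 16337 genes that reached 1 TPM in 2 or more libraries. The 12 libraries formed 4 groups that share the spread, and 6 groups for single siRNAs. Calls were made at a Benjamini-Hochberg adjusted p under 0.05 over all genes tested. Fold changes on this scale understate those of low genes. Python 3.11.15, pandas 2.3.3, NumPy 2.4.6 and matplotlib 3.10.9 were used, and the fit was tested on simulated data.

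The members, classes and lists were chosen with earlier results of these data known. Genes were named by rule: the most abundant of each class, all called at 72 h, the 12 lowest and 12 highest called at 144 h, all zinc and nucleotide sugar carriers called, any called between time points or siRNAs (none was), and the 5 most abundant, 44 in all. A few genes, counted in the totals, are not reported here by name. All other genes in the text were picked with their values in view. SLC2A4RG, SLC4A1AP and SLC7A6OS, which are no carriers, were put with the unassigned genes after their symbols were seen. Tried as alternatives were spike-in and median-of-ratios scaling, each library left out, no filter, a minimum mean of 5 TPM, 0.1 as the pseudocount, stricter or looser limits, no trend, 6 groups, a block for the replicate number, fits to 1 time point alone, and the si-NT libraries of both times combined in 1 group.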

Additional observations from a re-analysis of the deposited data

Results flagged for a closer look

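In 3 of the 84 groups of 4 BRG1 depleted libraries examined (42 genes at both time points), the highest or lowest library stood apart by Dixon's ratio, which sets its gap to the nearest library against the range of the group, at the 95% limit for 4 libraries. Chance alone flags about 1 in 20 such groups. All 3 were at 72 h. For SLC22A23 the ratio was 0.93, with siRNA 2 replicate 2 at 41.61 TPM and the other 3 libraries at 30.45 to 31.23 TPM. For SLC35C2 it was 0.884, with the same library at 44.06 TPM and the others at 42.07 to 42.3 TPM. For SLC7A2 it was 0.933, with siRNA 2 replicate 1 lowest, at 1.8 TPM, and the others at 2.08 to 2.1 TPM.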

How the results depend on the processing

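The counts of genes lower and higher at 72 h were 3 and 9. They were 5 and 7 with median-of-ratios size factors, 0 and 0 with spike-in scaling and with only the libraries of the time point, 2 and 4 with no filter, and 6 and 26 with si-NT of both time points combined. With each library left out they lay between 0 and 3 lower and between 1 and 9 higher. Spike-in scaling divides each library by its own spike-in total, which differed within groups (0.805% and 1.336% of TPM in si-NT at 144 h). It can thus change the spread between libraries as well as the level. At 144 h the counts were 21 and 49, and 11 and 1 with spike-in scaling. With each library left out they lay between 6 and 22 and between 15 and 52, lowest without si-NT 144 h replicate 2. At an adjusted p under 0.01, a limit added after seeing the data, they were 1 and 1 at 72 h and 14 and 25 at 144 h. A log2 fold change beyond 1 in place of 1.5 gave 1 gene at 72 h (in place of 0) and 13 at 144 h (in place of 2). The median log2 fold change turned to -0.042 at 72 h and -0.229 at 144 h with spike-in scaling, as did SLC35C2 at 144 h (-0.10). The cause of these changes was not tested. The replicate number as a block gave 2 lower and 7 higher at 72 h and 20 and 48 at 144 h, and it took 3 of the 44 named genes below the threshold at 72 h and 0 at 144 h. The numbers were not treated as pairs in the main fit. Deviations of same-numbered libraries correlated between -0.229 and 0.3 (median -0.0202, 15 pairs), so no pairing common to all groups was seen. Whether some of these libraries shared a batch was not tested. The other alternatives run for these counts kept them within 1.5 times. The counts of 0 for time points, siRNAs and si-NT stayed 0 under each alternative run for them. TPM gives no depth, so genes under 1 TPM could not be judged.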

Other observations

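Genes of solute carriers and their partners that bear other symbols were listed separately. Of 35 such genes 30 were tested, with 1 lower and 2 higher at 72 h and 4 lower and 8 higher at 144 h, and a median log2 fold change of 0.10 and 0.14. Among all genes 0.557% were lower and 1.13% higher at 72 h, and 10.8% were lower and 13.6% higher at 144 h. NPC1, which exports cholesterol from lysosomes, had a mean of 45.8 TPM (SD 5.85) over 2 si-NT libraries and of 219 TPM (SD 28.9) over 4 depleted libraries at 144 h (log2 fold change 2.23, limma adjusted p = 1.0e-05), and it was also higher at 72 h (1.50, limma adjusted p = 0.000949). MFSD2A, a carrier of lysophospholipids, was lower at both time points (-0.98, limma adjusted p = 0.0264, and -1.42, limma adjusted p = 0.000444). NIPA1, a magnesium transporter, was higher at both (0.48, limma adjusted p = 0.0411, and 0.54, limma adjusted p = 0.00388). The choice of these 3 was made with the values in view.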
